A study of Mus musculus with 36 samples.

Results

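The let-7 guide arms are the mature microRNAs cut from the 5′ side of the let-7 hairpins. The table of normalized values held 6 of them among its 469 microRNAs: mmu-let-7c-5p, mmu-let-7d-5p, mmu-let-7f-5p, mmu-let-7g-5p, mmu-let-7i-5p and mmu-let-7j. They were taken by name, as every entry that begins with let-7 and ends in 5p, plus let-7j, whose name carries no arm. Other let-7 guide arms are not analysed here.

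The values came from small RNA sequencing of B3, a mouse pre-B cell line that models the pre-BI stage. The Ikaros line was B3 transduced with an MSCV retroviral vector for HA-Ikaros-ERt2-IRES-GFP, a fusion of HA-tagged Ikaros with a domain of the estrogen receptor, which enters the nucleus when 4-hydroxytamoxifen (4-OHT) is present. The control line was B3 with the same type of vector carrying ERt2 and GFP without Ikaros. Both were sampled at 0, 2, 6, 12, 18 and 24 h, with 3 samples for each line and time, 18 for each line and 36 in all. The labels list 0.5 uM 4-OHT for all samples, and the study's methods state that the 0 h cells received none. Each line was a GFP-sorted population of transduced cells, so a difference between the lines that is present at 0 h cannot be told apart from a difference between the transduced populations. The 0 h samples came from culture batches 4, 5 and 6 and the later ones from culture batches 1, 2 and 3, so a change from 0 h also crosses culture batches. The labels do not give a sequencing batch. The design drawn by the study places the control samples of 2 to 18 h in another sequencing batch than the Ikaros samples, some of which were repeated in both, so at those times a difference between lines cannot be told apart from one between sequencing batches, other than by the batch correction of the authors.

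The let-7 family is known for its conserved seed, the bases at the 5′ end that pair with target mRNAs, and for holding down growth-promoting and fetal-type transcripts such as those of the Lin28, Hmga2, Ras and Myc genes. In B lymphopoiesis the Lin28b and let-7 pair is known to separate fetal from adult progenitors. Lin28 proteins bind the let-7 precursor and keep it from maturing. In Ikaros-driven differentiation, cells leave the cycle and move from the pre-BI to the pre-BII stage.

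The mature sequences, from RefSeq for GRCm38.p6, are shown because the family is defined by its seed and because its members differ by few bases, which decides how well reads can be assigned. All 6 members had an entry. Capitals mark the seed, bases 2 to 8 from the 5′ end.
let-7c-5p: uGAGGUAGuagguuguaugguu
let-7d-5p: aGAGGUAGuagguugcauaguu
let-7f-5p: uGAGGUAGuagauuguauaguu
let-7g-5p: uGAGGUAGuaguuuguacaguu
let-7i-5p: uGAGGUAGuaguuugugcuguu
let-7j: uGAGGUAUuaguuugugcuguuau
miR-98-5p: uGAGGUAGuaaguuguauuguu
Of the 6 members, 5 shared the seed GAGGUAG, and so did miR-98-5p, which is a member of the family by sequence but not by name. The seed of let-7j was GAGGUAU. Over their shared 22 bases, let-7j differed from let-7i-5p by 1 substitution, G8U, counted from the 5′ end of let-7i-5p, and it carried 2 further bases at the 3′ end. Members were otherwise separated by 2 to 7 substitutions. let-7f-5p and let-7c-5p differed at G12A and G19A, counted in let-7c-5p, so reads of close members can be split by the authors' alignment and levels of single members are uncertain to that extent.

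In the GRCm38.p6 annotation let-7d-5p (chr13:48536078-48536099, minus strand) and a first copy of let-7f-5p (chr13:48537889-48537910, minus strand) lay 1811 bp apart in an exon of the lincRNA 6720427I07Rik. The second copy of let-7f-5p (chrX:151912353-151912374, plus strand) lay in an intron of Huwe1, 876 bp from miR-98-5p (chrX:151913229-151913250, plus strand). let-7g-5p (chr9:106178846-106178867, plus strand) lay in an intron of Wdr82, and let-7i-5p (chr10:122985698-122985719, minus strand) in an exon of D630033A02Rik. let-7c-5p had 2 copies, at chr16:77599672-77599693 in an intron of Mir99ahg and at chr15:85706616-85706637 in an exon of Lncppara, both on the plus strand. let-7j (chr3:140028281-140028304, plus strand) overlapped no other annotated gene. The 2 copies of let-7f-5p and of let-7c-5p give the same mature sequence, so each value is a sum over both copies.

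The order of the levels was the same in 36 of 36 samples, on the log2 scale of the normalized values. let-7f-5p was the highest, with a median of 14.44 over all samples and a range of 14.08 to 14.85, and it ranked between 8 and 15 among the 469 microRNAs. let-7i-5p followed at a median of 13.85, let-7g-5p at 12.88 and let-7d-5p at 11.13. let-7j stood far lower at a median of 6.77 and let-7c-5p lowest at 3.08, where it ranked between 238 and 337. The closest neighbours in the order were let-7f-5p and let-7i-5p, whose difference within a sample averaged 0.55 and was never under 0.10. The members were of nearly equal length, 22 or 24 bases, but ligation efficiency in small RNA libraries differs between sequences, so a difference in level between members is one of normalized reads and not of molecules.

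On the linear scale, let-7f-5p made up on average 47.9% of the summed value of the 6 members in the control line and 45.7% in the Ikaros line. let-7i-5p contributed 31.2% and 32.8%, and let-7g-5p 16.1% and 16.3%. let-7d-5p stood at 4.44% and 4.87%, while let-7j and let-7c-5p each stayed under 1% in the samples of both lines. The summed value of the 6 members was thus carried by the same 3 members in both lines. Other let-7 guide arms do not enter these shares, which are not those of the whole family. Together the 6 members made up 3.81% ± 0.349 (SD, n = 18) of all summed linear values in the control line and 3.04% ± 0.715 (SD, n = 18) in the Ikaros line. These shares also move with the few most abundant microRNAs: miR-10a-5p alone ranged from 2.77% to 32.4% of the sum, and its part in the share of the 6 members was not tested.

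**Figure D1:**
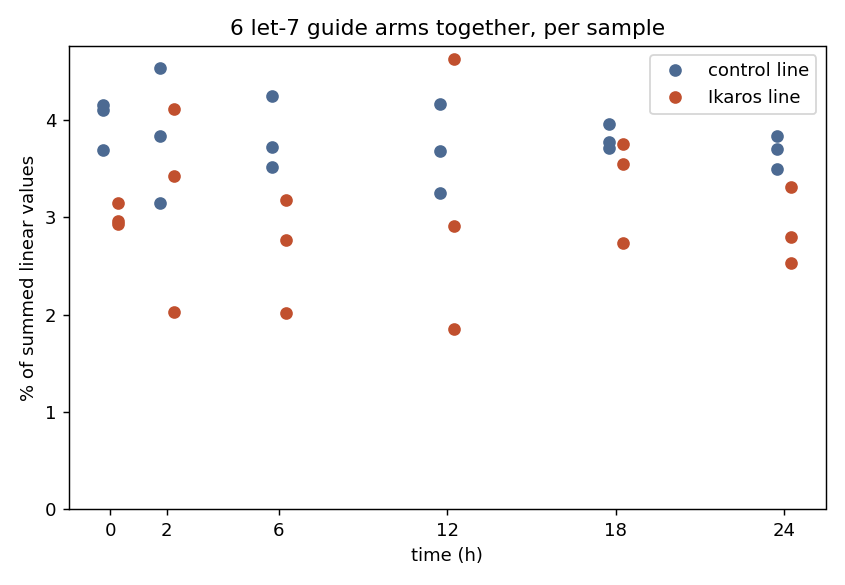
Sum of the 6 let-7 guide arms as a percentage of the summed linear values of all microRNAs (y axis, from 0) against time in hours, 1 point per sample, control line in blue and Ikaros line in orange. Control samples lie between 3.15% and 4.54%, and Ikaros samples between 1.86% and 4.62%, with the widest spread at 2 and 12 h.

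The first comparison asked whether the lines differed at each time. At 0 h none of the 6 members passed the test (limma across all microRNAs, adjusted p under 0.05; 1 of 6 had an unadjusted p under 0.05), against 8.53% of all microRNAs. At 2 h none passed either (2 of 6 unadjusted), against 11.3%. At 6 h 1 of 6 passed (2 of 6 unadjusted), against 15.1%. At 12 h it was 1 of 6 (2 of 6 unadjusted), against 21.7%. At 18 h it was 2 of 6 (3 of 6 unadjusted), against 29.9%. At 24 h it was 1 of 6 (4 of 6 unadjusted), against 39.9%. Over these times the share of all microRNAs that differed between the lines rose from 8.53% to 39.9%. The count of let-7 guide arms called was 0 to 2, and the unadjusted count rose from 1 to 4. Among all 469 microRNAs the unadjusted count was 75 at 0 h and 229 at 24 h. Whether counts among 6 members differ from the share of all microRNAs was not tested. All of these p-values rest on 1 estimate of the spread for each microRNA, pooled over the samples within all 12 groups. The 3 samples of a group came from separate culture batches. Batches 1, 2 and 3 recur at each time from 2 h on and in both lines.

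let-7f-5p, the most abundant member, was lower in the Ikaros line at 6, 18 and 24 h. At 0 h the control samples measured 14.60, 14.66 and 14.59 and the Ikaros samples 14.19, 14.31 and 14.29. At 24 h the control samples measured 14.45, 14.62 and 14.59 and the Ikaros samples 14.29, 14.08 and 14.16. At both times every Ikaros sample lay below every control sample, and so it was at 5 of the 6 times, with an overlap at 12 h that came to 0.001 on the log2 scale. The difference (Ikaros minus control) was -0.35 ± 0.12 (SE) at 0 h, with an adjusted p of 0.0786 by limma, and -0.30 at 2 h (adjusted p = 0.105). It was -0.44 at 6 h (adjusted p = 0.0129), -0.31 at 12 h (0.0733), -0.32 at 18 h (0.0494) and -0.38 at 24 h (0.0161), and quantile normalization turned its sign at 0 and 2 h. Subtracting each sample's median removed all 3 of these calls, at -0.28 (adjusted p = 0.311) at 6 h, -0.15 (0.539) at 18 h and -0.14 (0.512) at 24 h. Under quantile normalization the call at 24 h held (-0.59, adjusted p = 0.0290), and those at 6 h (-0.36, 0.296) and 18 h (-0.17, 0.590) did not. The 18 h call was at the threshold and held in 9 of the 36 fits that each left out 1 library. The call at 6 h was lost without the control sample 2 (adjusted p = 0.0704) or the Ikaros sample 1 (0.0506) of that time, and the call at 24 h without the control sample 2 (0.0589) or the Ikaros sample 2 (0.0715).

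let-7i-5p differed only at 12 h among the 6 times tested. The control samples there measured 14.16, 14.28 and 13.86 and the Ikaros samples 13.97, 13.55 and 13.44. One Ikaros sample lay above the lowest control sample, so the groups overlapped. The difference was -0.45 ± 0.14 (SE, adjusted p = 0.0239 by limma), and it came to -0.25 (adjusted p = 0.274) without the 3 libraries furthest from their group means. The call held in 5 of the 12 alternatives and was lost with each sample's median subtracted and under quantile normalization. It was also lost without the control sample 1 (adjusted p = 0.0578) or 2 (0.106) or the Ikaros sample 2 (0.0837) or 4 (0.114) of that time. At 24 h the control samples measured 13.86, 13.85 and 13.85 and the Ikaros samples 13.84, 13.83 and 14.06. The difference of 0.06 at 24 h had a 95% interval from -0.23 to 0.34, and its sign turned under quantile normalization.

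let-7c-5p, the scarcest member, was the only one called higher in the Ikaros line. At 18 h the control samples measured 2.07, 2.28 and 2.92 and the Ikaros samples 3.80, 3.55 and 3.24, with no overlap. The difference was 1.11 ± 0.26 (SE, adjusted p = 0.00163 by limma). The call held in all 36 fits that left out 1 library each, but in only 10 of the 12 alternatives. Over those 12 the difference went down to 0.79 and the adjusted p up to 0.0938 by limma. The same-numbered differences at 18 h were 1.73, 1.27 and 0.32, for samples 1, 2 and 4. At 24 h the control samples measured 2.51, 2.89 and 3.01 and the Ikaros samples 3.59, 3.38 and 3.35, and the difference of 0.64 missed the threshold (adjusted p = 0.0527), but passed with the median of each sample subtracted (0.87, adjusted p = 0.00613) and under quantile normalization (0.83, adjusted p = 0.00974). A level near 3 on this scale rests on few reads, how few is not known from these values, and let-7c-5p made up 0.0141% of the members' linear sum in the control line. Whether reads of more abundant members were assigned to it was not tested.

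let-7g-5p and let-7d-5p passed at no single time. For let-7g-5p the difference lay between -0.33 at 6 h and -0.10 at 12 h, and the smallest adjusted p was 0.0649, at 18 h. At 24 h its control samples measured 12.81, 13.02 and 13.02 and its Ikaros samples 12.62, 12.58 and 12.81. For let-7d-5p the difference ran from -0.43 at 24 h (adjusted p = 0.0629) to 0.27 at 12 h. Its 24 h control samples measured 10.99, 11.23 and 11.32 and its Ikaros samples 10.89, 10.55 and 10.82, with no overlap. let-7j overlapped between the lines at 6 of 6 times.

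**Figure D2:**
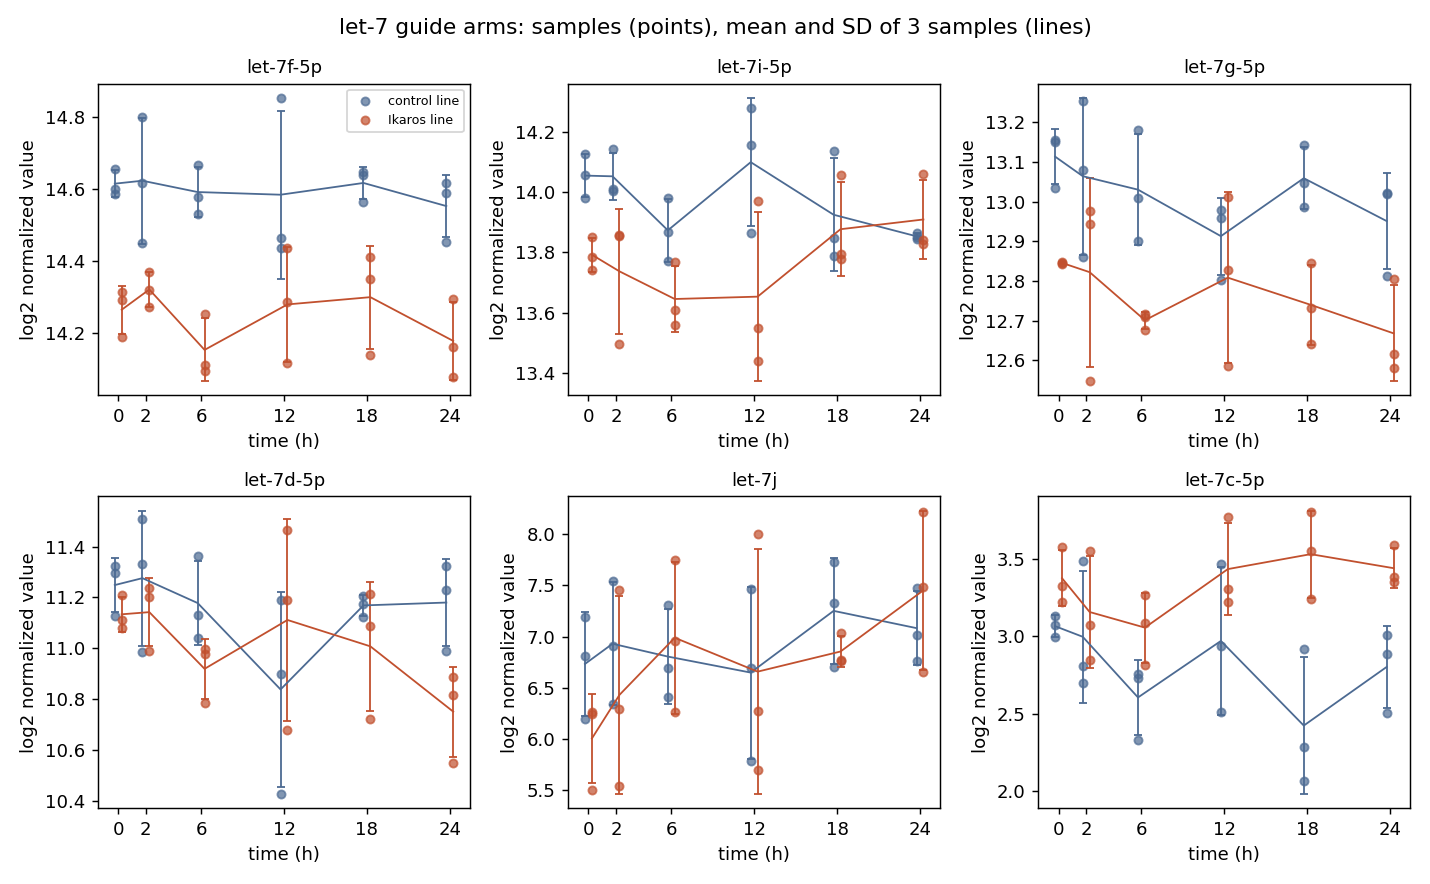
Log2 normalized values (y axis, own scale in each panel) against time in hours for the 6 guide arms, with 1 point per sample and lines with bars for the mean and SD of 3 samples, control line in blue and Ikaros line in orange. let-7f-5p is separated by line at nearly all times, let-7c-5p runs the other way, and let-7j varies by more than 1 log2 unit within several groups.

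A difference of similar size at every time can pass when the times are averaged, so the mean of the 6 line differences was tested in the same model. This comparison was chosen after the data were seen. The samples of 2 to 24 h came from the same culture batches 1, 2 and 3. Neither the times nor the 18 same-numbered pairs are therefore independent cultures, although the model counts each sample as separate. It called 4 of 6 members, against 52.5% of all microRNAs. let-7f-5p was lower in the Ikaros line by a log2 difference of -0.35 (95% interval -0.45 to -0.25, adjusted p = 7.0e-07 by limma), and 17 of 18 same-numbered pairs were lower. let-7g-5p was lower at -0.26 (95% interval -0.37 to -0.15, adjusted p = 0.000173), with 16 of 18 pairs lower. let-7i-5p was lower at -0.21 (95% interval -0.32 to -0.09, adjusted p = 0.00336), with 15 of 18 pairs lower. let-7c-5p was higher at 0.52 (95% interval 0.30 to 0.74, adjusted p = 0.000145), with 16 of 18 pairs higher. let-7d-5p, at -0.14, and let-7j, at -0.18, did not pass. The calls of let-7g-5p and let-7i-5p were lost when the median of each sample was subtracted (-0.14 and -0.09). Under quantile normalization let-7g-5p was lost too (-0.21, adjusted p = 0.108), and let-7f-5p missed the threshold under quantile normalization (-0.19, adjusted p = 0.0630).

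In the same drawn design, samples of both lines at 0 and 24 h were run in the first sequencing batch, and the mean of those 2 line differences was tested as well. It was also added after the data were seen, and it called 2 of 6 members, against 31.6% of all microRNAs. let-7f-5p was lower at -0.36 (adjusted p = 0.00132 by limma) and let-7g-5p at -0.28 (adjusted p = 0.0219). let-7i-5p, at -0.10, was not called there (adjusted p = 0.472), and let-7c-5p, at 0.47, missed the threshold (0.0503). Both calls were lost with the median of each sample subtracted (let-7f-5p -0.20, adjusted p = 0.186; let-7g-5p -0.12, 0.416) and under quantile normalization (-0.24, 0.235, and -0.24, 0.370). let-7c-5p was the member called under those scalings, at 0.63 (adjusted p = 0.00599) and 0.59 (0.0110).

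**Figure D3:**
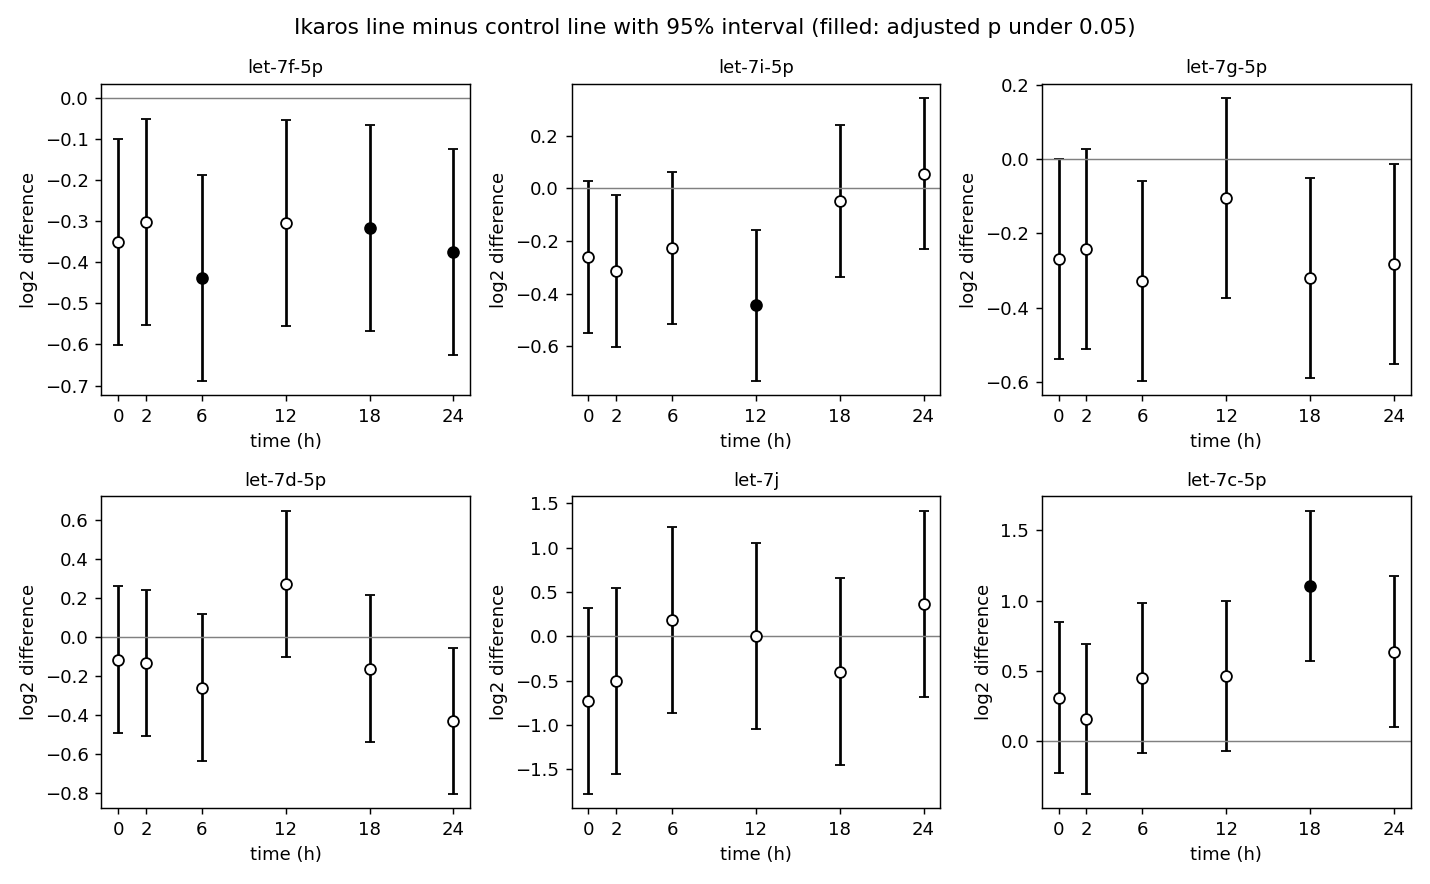
Log2 difference between the lines (Ikaros minus control, y axis, own scale in each panel) against time in hours, with 95% intervals from the model over all samples and filled points where the adjusted p was under 0.05. The 6 points of let-7f-5p lie between -0.44 and -0.30, and the filled points are let-7f-5p at 6, 18 and 24 h, let-7i-5p at 12 h and let-7c-5p at 18 h.

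The second comparison asked whether the difference between the lines changed over time. A fixed difference between the lines does not enter this measure. A sequencing-batch difference between the lines at 2 to 18 h, absent at 0 and 24 h, would enter the slope and the interaction. There it cannot be told apart from a response to induction, other than by the batch correction of the authors. No member passed for the change of the line difference from 0 to 24 h, against 5.76% of all microRNAs that passed higher and 6.61% that passed lower in the Ikaros line by limma, and none of 6 had an unadjusted p under 0.05. Of all 469 microRNAs, 124 had an unadjusted p under 0.05. The change for let-7f-5p was -0.02 with a 95% interval from -0.38 to 0.33, and that for let-7g-5p was -0.02 with an interval from -0.40 to 0.37. These values moved with the scaling. For let-7f-5p the change was 0.13 with the median of each sample subtracted and -0.70 (adjusted p = 0.140) under quantile normalization. No member passed for the difference in slope from 2 to 24 h either, against 22.2% of all microRNAs, with 1 of 6 at an unadjusted p under 0.05, as were 173 of all 469. That member was let-7i-5p, whose fitted change over 22 h was higher by 0.37 in the Ikaros line (95% interval 0.01 to 0.73, adjusted p = 0.125). let-7c-5p had a difference in slope of 0.62 (95% interval -0.05 to 1.28, adjusted p = 0.170). The interaction of line and time over the 6 times called 0 of 6 members, against 13% of all microRNAs. None of the 6 members had an unadjusted p under 0.05 there, and 109 of all 469 microRNAs had one.

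Within the Ikaros line, 1 of 6 members passed between 0 and 24 h, against 30.7% of all microRNAs, and it was let-7j. None passed between 2 and 24 h by limma (1 of 6 at an unadjusted p under 0.05), against 28.6%, and none over the 6 times together (0 of 6 unadjusted), against 26.7%. The unadjusted counts among all 469 microRNAs were 181 and 166. Under quantile normalization let-7f-5p also passed from 0 to 24 h in the Ikaros line (-0.70, adjusted p = 0.0143), where its change on the deposited values was -0.09. let-7d-5p had a log2 change of -0.38 from 0 to 24 h that did not pass (adjusted p = 0.117). Within the control line no member passed between 0 and 24 h or between 2 and 24 h, and 0% of all microRNAs did, with 0 of 6 members at an unadjusted p under 0.05 in each. Over the 6 times together none of the members passed in the control line (0 of 6 unadjusted), against 0.426% of all microRNAs.

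let-7j rose in the Ikaros line from 6.25, 6.26 and 5.50 at 0 h to 8.21, 7.48 and 6.66 at 24 h, with no overlap. The change was 1.45 ± 0.51 (SE, 95% interval 0.40 to 2.50, adjusted p = 0.0317 by limma). In the control line it measured 7.19, 6.81 and 6.19 at 0 h and 7.47, 7.01 and 6.76 at 24 h, which overlap, with a change of 0.35. The change in the Ikaros line beyond that of the control line was 1.10 with a 95% interval from -0.39 to 2.58 (adjusted p = 0.345), so a difference between the lines in this change was not shown. The call in the Ikaros line held in 32 of the 36 fits that left out 1 library. The libraries without which it was lost were the Ikaros samples 1 (adjusted p = 0.0504) and 4 (0.138) of 0 h and 1 (0.170) and 2 (0.0757) of 24 h.

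let-7j was the member that varied most within groups. Its within-group SD was 0.69, larger than that of 97.4% of the 469 microRNAs, whereas that of let-7f-5p was 0.12, larger than that of only 0.853%. The deviations of let-7j from its group means ran with a main axis of within-group deviation, computed from all microRNAs other than the 6 members, which held 36.2% of the within-group variance. Pearson's r was 0.99 and Spearman's rho 0.98 over 36 samples (adjusted p = 5.2e-05 and 7e-05 over 21 relations, by permutation within groups, where the raw p of 1e-05 is the smallest that 100000 permutations can give). Without the 2 samples furthest out on that axis r was still 0.99. The deviations of let-7g-5p ran the other way, with r = -0.85 and rho = -0.84 (same adjusted p-values), as did those of let-7d-5p with r = -0.77 and rho = -0.74 (adjusted p = 0.00017 and 0.00021 by permutation). Without the same 2 samples their r was -0.80 and -0.71. By size of r with the axis, let-7j ranked 2 among the 469 microRNAs, let-7g-5p 36 and let-7d-5p 63. At r = -0.43 let-7i-5p still ranked 206. The axis is the main one of the other microRNAs, so relations of this size are not particular to the members. let-7f-5p showed no such relation (r = -0.19, rho = -0.20, adjusted p = 0.50 and 0.40 by permutation). Among the members themselves, the deviations of let-7d-5p and let-7g-5p were correlated (r = 0.81, rho = 0.80, adjusted p = 5.2e-05 and 0.00021 by permutation). The axis moved with miR-10a-5p, whose r with it was 0.97. The axis is centred within each group, so both lines have samples on both of its sides by construction. What the axis stands for was not tested.

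**Figure D4:**
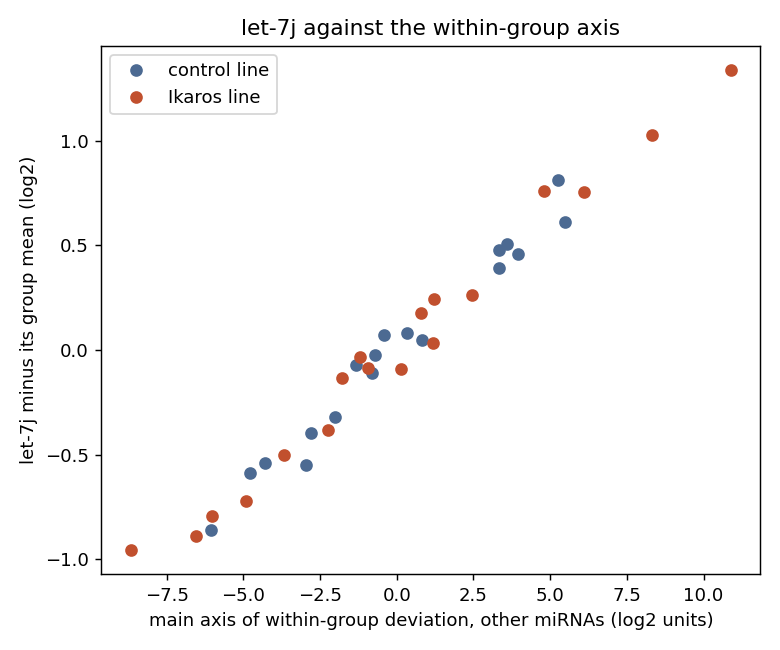
Deviation of let-7j from its group mean (log2, y axis) against the main axis of within-group deviation of the other microRNAs (log2 units, x axis), 1 point per sample, control line in blue and Ikaros line in orange. The points of both lines follow one rising line (r = 0.99 over 36 samples), with the Ikaros sample 4 of 12 h at the upper end.

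miR-98-5p is the seed mate next to the second let-7f copy. In the Ikaros line it measured 11.50, 11.76 and 11.58 at 0 h and 11.92, 11.95 and 11.94 at 24 h, with no overlap. In the control line it measured 11.70, 11.72 and 11.76 at 0 h and 11.58, 11.77 and 11.56 at 24 h. Every Ikaros sample lay below every control sample at 6 h, where the difference of -0.31 did not pass (adjusted p = 0.0811 by limma). At 24 h every Ikaros sample lay above every control sample. miR-98-5p rose in the Ikaros line by 0.32 from 0 to 24 h (adjusted p = 0.0399 by limma) and was higher than in the control line by 0.30 at 24 h (adjusted p = 0.0449). Its difference in slope between the lines from 2 to 24 h was 0.53 (95% interval 0.23 to 0.83, adjusted p = 0.00968), and it passed also with the median of each sample subtracted (0.70, adjusted p = 0.00596) and under quantile normalization (0.62, adjusted p = 0.0429). The slope spans times at which the drawn design places the lines in different sequencing batches. The part of these batches in the slope was not tested. Under quantile normalization the change within the Ikaros line (0.20, adjusted p = 0.432) and the difference at 24 h (0.35, adjusted p = 0.106) did not pass. The change of the line difference from 0 to 24 h (0.41, adjusted p = 0.111) and the interaction of line and time (adjusted p = 0.0666) did not pass on the deposited values. Whether the change of miR-98-5p over time differs from that of let-7f-5p was not tested.

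**Figure D5:**
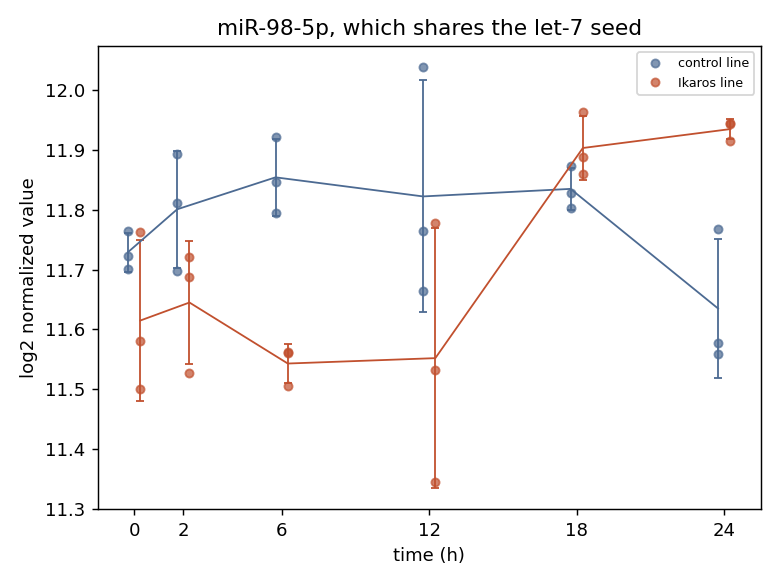
Log2 normalized values of miR-98-5p (y axis) against time in hours, with 1 point per sample and lines with bars for the mean and SD of 3 samples, control line in blue and Ikaros line in orange. The group means of the Ikaros line are lowest at 6 and 12 h, and its samples lie between 11.92 and 11.95 at 24 h, above the control samples of that time.

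Of the 6 let-7 3p arms, the strands mostly discarded when the guide is loaded, 3 were lower in the Ikaros line at 24 h, where 39.9% of all microRNAs passed in either direction. These were let-7f-1-3p by a log2 difference of -1.64 (adjusted p = 0.000132 by limma), let-7b-3p by -0.91 (0.00533) and let-7g-3p by -0.91 (0.0407). None of these 3 passed for the change of the line difference from 0 to 24 h (adjusted p = 0.0880, 0.242 and 0.278 by limma). The value of let-7g-5p over let-7g-3p at 24 h was 9.17 ± 0.549 for Ikaros samples and 8.54 ± 0.241 for control samples (log2 difference, SD, n = 3), and the groups overlapped. At 0 h the value was 8.07 ± 0.296 for Ikaros samples and 8.27 ± 0.382 for control samples. A difference between the lines in this value was not tested.

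The microRNAs whose pattern over the 12 group means was most like that of each member, outside the family, were found by Pearson's r. These points share libraries and the fixed line difference, and the values are a description. For let-7f-5p they were miR-127-3p (r = 0.96) and miR-410-3p (0.96), and for let-7g-5p miR-363-3p (0.96) and miR-130b-5p (0.95). For let-7c-5p they were miR-106b-3p (0.92) and miR-1843a-5p (0.89), and for let-7d-5p miR-669l-5p (0.86) and miR-155-3p (0.85). For let-7i-5p they were miR-200a-5p (0.84) and miR-127-3p (0.80), and for let-7j miR-1291 (0.86) and miR-19b-3p (0.85). Within the family, let-7f-5p and let-7g-5p were most alike (r = 0.94), while let-7c-5p ran against let-7f-5p (r = -0.73).

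The listed markers of the labelled cell type were present. miR-181a-5p, known from lymphoid progenitors, had a median of 18.19 over all samples and miR-142-5p, known from blood cells, one of 14.62, and miR-155-5p stood at 10.77 and miR-150-5p, a marker of mature lymphocytes, at 3.95. Of 19 markers listed for blood and other cell types 10 were in the table. Among those of other cell types, miR-9-5p, known from neural cells, stood at 13.33. The epithelial marker miR-200c-3p stood at 4.68, above miR-150-5p. The myeloid marker miR-223-3p stood at 1.91, the epithelial miR-141-3p at 1.58 and the mesenchymal miR-143-3p at 1.08. miR-223-3p measured 1.62 ± 0.594 at 0 h and 3.73 ± 0.769 at 24 h in the Ikaros line (SD, n = 3), and 1.64 ± 0.313 and 1.66 ± 0.321 in the control line. Its part in the members' results was not tested. In bulk samples a change in the share of cells and a change in RNA per cell cannot be told apart.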

How the data were processed

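Small RNA libraries (TruSeq Small RNA kit) from 36 samples of the B3 line were measured. Per the study's methods and the labels, the authors aligned reads to miRBase mouse microRNA sequences with Novoalign, counted with bedtools multiBamCov, filtered low counts, corrected for GC content with cqn, applied TMM and ComBat, averaged technical replicates and deposited log2 values for 469 microRNAs. The processing notes name mm10; tool versions are not given in the sources used here. Counts are not in the table, so depth is unknown and no interval for it is given; the averaging and ComBat can narrow the spread between samples.

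Groups were line and time. limma 3.58.1 (R 4.3.3; lmFit and eBayes with trend) was fitted with 12 group means to all samples, with Benjamini-Hochberg adjustment over 469 microRNAs and a threshold of 0.05; it was tested on simulated data. Correlations of within-group deviations used 100000 permutations within groups. Same-numbered samples of a time share a culture batch by the labels, which pairs them: the correlation of their deviations over all microRNAs was 0.26 over the 18 pairs and over 0.1 in 14 of them. Coordinates and sequences are RefSeq's for GRCm38.p6. Every member, its seed mates, the listed cluster neighbours and the 2 most alike microRNAs per member were the items to name. Members and lists were chosen with earlier results of these data known. Alternatives covered scaling, filter, trend, samples fitted, replicate block and left-out libraries. Added after seeing the data were 2 sets of 3 left-out libraries, an axis covariate, single-library fits and both averaged line differences.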

Additional observations from a re-analysis of the deposited data

How the results depend on the processing

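Values rest on log2 data without counts, so depth limits cannot be stated, and fits with 3 samples a group leave near-threshold calls uncertain. Counts of members called (of 6) were as follows where they differed from the report, and the cause was not tested. With the median of each sample subtracted, which moved the median line difference of all microRNAs at 24 h from -0.07 to 0.17, they were 0 at each of 6 and 12 h, 1 at 18 h, 2 averaged over 6 times and 1 averaged over 0 and 24 h. Under quantile normalization they were 0 at each of 6 and 12 h, 1 at 18 h, 2 at 24 h, 2 for the Ikaros line from 0 to 24 h, 2 averaged over 6 times and 1 averaged over 0 and 24 h. Without the variance trend they were 1 at 18 h and 2 at 24 h. With only microRNAs of mean log2 value of at least 3 they were 1 at 0 h, 2 at 12 h and 3 at 24 h. With only the groups compared they were 0 at 6, 12 and 24 h, 1 at 18 h and 4 averaged over 0 and 24 h.

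The following were added after the data were seen. Without the 3 libraries furthest from their group means (the control sample 2 of 12 h and the Ikaros samples 4 of 2 and 12 h), the counts were 1 at 0 h and 2 at 6 h, none (0) at 12 h, 4 at 24 h, 4 averaged over 0 and 24 h, and 2 for the Ikaros line from 0 to 24 h, from 2 to 24 h and over its 6 times. Without the 3 libraries led by miR-10a-5p (the Ikaros samples 4 of 2 and 12 h and 1 of 6 h), they were 0 at 12 h, 2 at 24 h, 1 for the Ikaros line from 2 to 24 h and 1 over its 6 times. With the axis as a covariate they were 3 at each of 0 and 2 h, 2 at each of 6 and 12 h, 4 at 18 h and 5 at 24 h, then 1 for the change of the line difference from 0 to 24 h, 1 for the slope, 2 for the interaction, 4 averaged over 0 and 24 h, 2 for the Ikaros line from 0 to 24 h, 2 from 2 to 24 h and 1 over its times, and 1 for the control line over its times. The axis was built from these values and is centred within each group, so it left every estimate unchanged and altered only the SE. The higher counts with it therefore add no support for a call.

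Leaving out each replicate number in turn gave 0 at 6 h, 0 to 1 at each of 12, 18 and 24 h, 0 to 1 averaged over 0 and 24 h, 0 to 1 for the Ikaros line from 0 to 24 h, 0 to 1 from 2 to 24 h and 0 to 1 over its times. With the replicate block the counts were as in the report, 1 at 24 h and 4 averaged over 6 times among them, and it changed no member's call. The block was the culture batch. For the tests within a line from 0 to 24 h and over the 6 times it was the replicate number, which there joins different cultures. At 24 h the single member called was let-7f-5p on the deposited values and let-7c-5p with the median of each sample subtracted.

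Among the member values recomputed, the following turned in sign. let-7i-5p at 24 h came to -0.17 under quantile normalization and lay between -0.0213 and 0.0955 when a replicate number was left out, and averaged over 0 and 24 h it came to 0.0548 with the median of each sample subtracted. let-7f-5p came to 0.11 at 0 h and 0.0479 at 2 h under quantile normalization. With the median of each sample subtracted its change of the line difference from 0 to 24 h came to 0.127 and its change in the Ikaros line to 0.0765, and the change of the line difference of let-7g-5p came to 0.136. When a replicate number was left out, the change of the line difference lay between -0.163 and 0.0603 for let-7f-5p and between -0.0692 and 0.0436 for let-7g-5p, and let-7g-5p at 12 h lay between -0.174 and 0.0303. The latter came to 0.00741 without the 3 libraries led by miR-10a-5p.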

Other observations

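The listed genomic neighbours of let-7 hairpins were also measured. Of 13 listed arms 7 were in the table, and 3 of 7 passed between the lines at 24 h by limma, against 39.9% of all microRNAs. miR-100-5p was lower in the Ikaros line by a log2 difference of -1.20 (adjusted p = 0.000681) and miR-99b-5p by -0.71 (adjusted p = 0.0426), and miR-98-5p was higher by 0.30 (adjusted p = 0.0449). The remaining 4 neighbours did not pass.

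The 3p and 5p arms of let-7d stood nearer to each other than those of the other hairpins. let-7d-5p exceeded let-7d-3p by 1.22 ± 0.272 (log2 difference, SD, n = 3) in the control line at 0 h, by 2.00 ± 0.344 in the Ikaros line at 0 h and by 0.952 ± 0.250 in the Ikaros line at 24 h, with 1.04 ± 0.384 in the control line at 24 h. let-7d-3p itself was lower in the Ikaros line at 0 h by -0.90 (adjusted p = 0.000440 by limma), and rose there by 0.67 from 0 to 24 h (adjusted p = 0.0044). Its change beyond that of the control line was 0.55 and did not pass (adjusted p = 0.141). Values of 0 and 24 h come from different culture batches.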
